A study of Mus musculus with 16 samples.

Results

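The 41 genes described here are transcripts typical of macrophages and other myeloid cells, chosen as a list of gene names and sorted by known role: 5 genes of resident tissue macrophages (Vsig4, Mertk, Folr2, Mrc1 and Cd163), 15 genes shared by most myeloid cells, and 21 genes of complement, Fc receptors, scavenging, lipid handling and other macrophage functions. Each was read from its probe set on expression arrays of whole gastrocnemius, the large calf muscle. A probe set was used if the platform annotation gave it exactly 1 gene symbol and if it was brighter than the median of its array in 8 or more of 16 arrays. Of the 41 genes, 40 met this, each with 1 probe set, among 13601 genes tested in all. Spp1 (osteopontin) had no probe set with a single symbol. Above the array median in all 16 mice were 30 of the 40. C5ar1 was the only member that passed with fewer than 4 controls above their array median, and it was not called different between the groups.

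The deletion group (n = 8) carried Mx1-Cre and floxed Foxo1, Foxo3 and Foxo4 alleles (Mx1-Cre+;FoxO1,3,4L/L), and the control group (n = 8) consisted of littermates with the same floxed alleles and no Cre. All were male FVB/n mice, 16 weeks old, which for their last 8 weeks had eaten a diet rich in fat (58%), the rest being mainly carbohydrate (25.5%) and protein (16.4%). Both groups had received 3 injections of polyinosine:cytidine at 4 to 5 weeks of age, an RNA mimic that sets off interferon and so switches on the Mx1 promoter. The labels call the deletion endothelial directed. The Mx1 promoter answers to interferon and is known to drive Cre in blood-forming cells and liver as well, so macrophages in these mice could have lost the FoxO genes too, which was not tested. Every deletion mouse and no control carried Cre, so an effect of Cre itself cannot be told apart from one of the deletion.

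Muscle holds resident macrophages that lie near vessels and in the connective tissue, take up dead cells and debris, and help muscle to regenerate. Some of them are kept up by local division and others are refilled from blood monocytes. Growth and survival of these cells depend on the receptor Csf1r and its ligands CSF1 and IL-34, and the transcription factor PU.1 (Spi1) sets up much of their gene expression. FoxO factors are held out of the nucleus by insulin and growth factor signalling and, when active, regulate cell quiescence, stress resistance and metabolism. In whole muscle, more cells of a type and more RNA per cell cannot be told apart, and this applies to every level below.

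Array medians lay between 4.43 and 4.61 log2 units, and correlations between arrays ran from 0.958 to 0.982. In whole muscle the 3 targeted transcripts did not pass the test: Foxo1 differed by 0.07 (SE 0.12, limma adjusted p = 0.804), Foxo3 by 0.50 (SE 0.14, adjusted p = 0.0762) and Foxo4 by -0.24 (SE 0.10, adjusted p = 0.236). The mean of 6 skeletal muscle transcripts was 12.92 ± 0.06 log2 units in deletion mice and 12.91 ± 0.07 in controls (SD, n = 8 each). Alb, the serum albumin made by hepatocytes, reached 10 log2 units or more in 6 mice: deletion mice 1, 2, 4 and 5, and control mice 2 and 7. Muscle does not normally make it, and the count of members called is also given without those mice. Deletion mice 1 and 3 stood high over the members: mouse 3 had the highest level of all 16 mice in 31 of the 40 genes, mouse 1 in 4, and the pair held the top 2 places in 26. That count is therefore also given without this pair.

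Of the 40 members, 6 were called higher in deletion mice and 0 called lower. They were Vsig4 and Mertk of the resident genes, Ptprc and Itgam of the pan-myeloid genes, C1qa of the complement genes, and F13a1, the A chain of clotting factor XIII. The test was limma with Benjamini-Hochberg adjustment over the 13601 genes and a threshold of 0.05. Over all genes tested, 249 (1.83%) were called, 208 (1.53%) of them higher and 41 (0.301%) lower. With each array centred on the median of its genes, the numbers over all genes became 126 higher and 67 lower, and 5 members were higher. At an unadjusted p under 0.05, 19 members were higher, against 10.5% of all genes, and 1 member was lower, against 6.82% of all genes. The difference was above 0 in 35 of 40 members, against 50.2% of all genes. The median difference was 0.36 log2 units over the members and 0.00 over all genes. Without deletion mice 1 and 3 the members' median was 0.17 and 4 stayed called (Vsig4, Mertk, C1qa and F13a1), with 13 higher and 2 lower at an unadjusted p under 0.05. Without the 6 mice with high Alb, which left 4 deletion and 6 control mice, 0 members passed in limma, 21 were higher at an unadjusted p under 0.05, the members' median was 0.46, and 7 genes passed over the whole array.

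**Figure D1:**
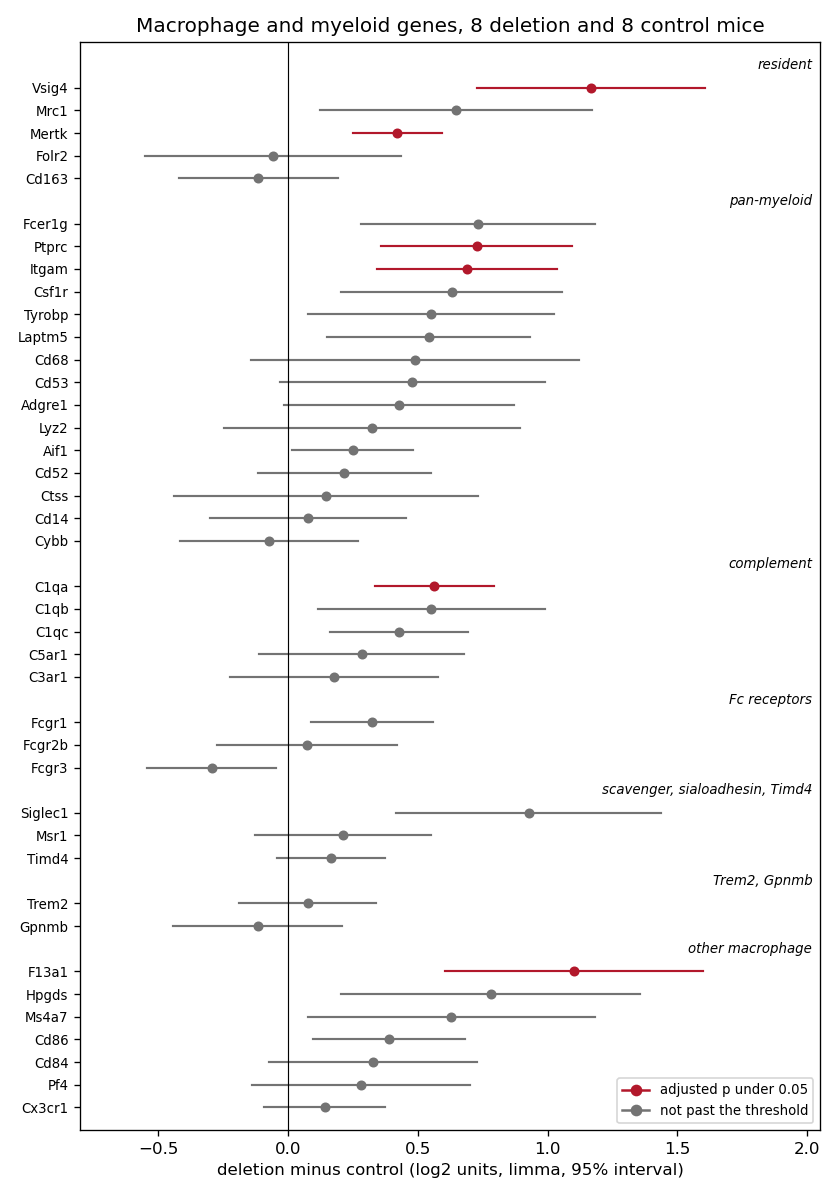
Difference between deletion and control mice (log2 units, x axis) for each of the 40 members, grouped by role. Points are limma estimates and bars 95% confidence intervals; the 6 genes called are in red, led by Vsig4 at 1.17, and Fcgr3 has the lowest estimate, -0.29.

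Promoter sequence was looked at for PU.1, the factor that sets up macrophage gene expression, for the FoxO factors themselves and for interferon regulatory factors, because the members were read as a group. The windows are the 250 bases before each annotated RefSeq start in GRCm38.p6, a C57BL/6J reference and not the FVB/n genome of these mice. A table of 32851 such windows held 38 windows of 32 members. The letters AGGAAGT (on the other strand ACTTCCT), a short form of the site bound by PU.1 and other ETS factors, were in 13 of the 38 windows (34.21%) and in 7.69% of all windows. By gene, 12 of 32 members had them, against 8.8% of all genes: C1qb, C1qc, C5ar1, F13a1, Fcgr1, Folr2, Hpgds, Lyz2, Mrc1, Pf4, Ptprc and Spp1. The core letters bound by FoxO factors, GTAAACA, searched on both strands, were in 0 of the 38 windows and in 3.17% of all. A motif of interferon regulatory factors, also searched on both strands, was in 4 of the 38 windows (10.53%), those of Aif1, Ctss, Cybb and Spp1, and in 2.98% of all. The motifs were chosen after the data had been seen, a match is not a binding site, and no binding was measured. In the sequences below AGGAAGT or ACTTCCT is in capitals, read 5′ to 3′ on the gene's strand. They show 2 called genes with a match (F13a1 at chr13:37049214-37049463 and Ptprc at chr1:138175306-138175555, both on the minus strand), a resident gene with 2 matches that was not called (Folr2, chr7:101857191-101857440, minus strand), and the called gene with the largest difference, which has no match (Vsig4, chrX:96293439-96293688, minus strand).
F13a1: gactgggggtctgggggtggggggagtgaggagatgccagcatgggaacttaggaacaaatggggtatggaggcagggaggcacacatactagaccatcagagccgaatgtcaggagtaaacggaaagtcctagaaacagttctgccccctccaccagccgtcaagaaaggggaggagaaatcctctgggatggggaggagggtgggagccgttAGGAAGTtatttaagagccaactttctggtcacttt
Ptprc: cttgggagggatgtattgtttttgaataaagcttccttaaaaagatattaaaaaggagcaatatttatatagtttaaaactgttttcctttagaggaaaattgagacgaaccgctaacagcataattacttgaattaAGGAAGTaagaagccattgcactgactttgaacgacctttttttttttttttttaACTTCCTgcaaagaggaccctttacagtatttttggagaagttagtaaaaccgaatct
Folr2: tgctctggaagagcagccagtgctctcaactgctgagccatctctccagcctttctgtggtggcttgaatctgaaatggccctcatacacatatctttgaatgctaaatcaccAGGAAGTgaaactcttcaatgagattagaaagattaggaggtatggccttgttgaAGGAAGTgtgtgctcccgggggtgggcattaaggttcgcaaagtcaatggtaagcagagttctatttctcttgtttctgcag
Vsig4: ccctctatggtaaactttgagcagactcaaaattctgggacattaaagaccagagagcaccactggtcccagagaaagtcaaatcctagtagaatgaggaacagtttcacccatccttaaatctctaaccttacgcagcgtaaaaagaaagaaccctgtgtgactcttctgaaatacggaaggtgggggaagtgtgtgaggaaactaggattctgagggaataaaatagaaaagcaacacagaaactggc
Among the 12 genes with AGGAAGT in a window, 2 were called (F13a1 and Ptprc), and Spp1 was not tested. Vsig4, Mertk and Itgam were called without it, and C1qa was called but has no window in the table, nor have Adgre1, Csf1r, Cd14, Tyrobp, Cd52, Msr1, Siglec1 and Cd86.

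The 5 resident genes did not move together: 2 were called higher, 0 were called lower and 3 did not pass. Vsig4, on the X chromosome, is a complement receptor of resident macrophages that binds C3 fragments. Its level ran from 5.45 through a median of 6.13 to 7.21 log2 units in deletion mice, against 4.41, 5.08 and 5.45 in controls. Every deletion mouse lay above every control, although the lowest deletion mouse and the highest control are equal to 2 decimals. Among all genes tested, 0.243% separated in this way, and Vsig4 was the only member. The difference of 1.17 (SE 0.21, 95% interval 0.73 to 1.61) is a 2.24-fold higher level (limma adjusted p = 0.00980).

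Mertk, on chromosome 2, is the receptor kinase by which macrophages recognise dying cells through the bridging proteins Gas6 and protein S. It ranged over 5.98, 6.24 and 6.57 log2 units in deletion mice (lowest, median, highest), against 5.64, 5.82 and 5.98 in controls. Of the 8 deletion mice, 7 lay above every control. The rise of 0.42 (SE 0.08, 95% interval 0.25 to 0.59) was small in size but larger than the narrow spread within groups (limma adjusted p = 0.0140). In contrast to most members, its highest mouse was deletion mouse 4, not 1 or 3.

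Mrc1 encodes the mannose receptor CD206. Its lowest, median and highest levels were 7.97, 8.50 and 9.94 log2 units in deletion mice, against 7.50, 7.91 and 8.57 in controls. The groups overlapped, and the difference of 0.65 (SE 0.25, 95% interval 0.12 to 1.17) did not pass (limma adjusted p = 0.190).

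Folr2, the folate receptor beta, is a marker of long-lived tissue macrophages. Levels were 6.05, 6.48 and 7.99 log2 units (lowest, median, highest) in deletion mice and 6.13, 6.79 and 7.36 in controls. The groups overlapped over most of their range, with a lower median and a higher maximum in deletion mice. The difference was -0.06 (SE 0.24, 95% interval -0.55 to 0.44, limma adjusted p = 0.930), an interval that leaves room for change in either direction.

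Cd163, the scavenger receptor for haemoglobin bound to haptoglobin, was not called either. It read 5.81, 6.04 and 6.65 log2 units in deletion mice, against 5.69, 6.21 and 6.82 in controls. The groups overlapped fully, and the difference was -0.11 (SE 0.15, 95% interval -0.42 to 0.19, limma adjusted p = 0.733).

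**Figure D2:**
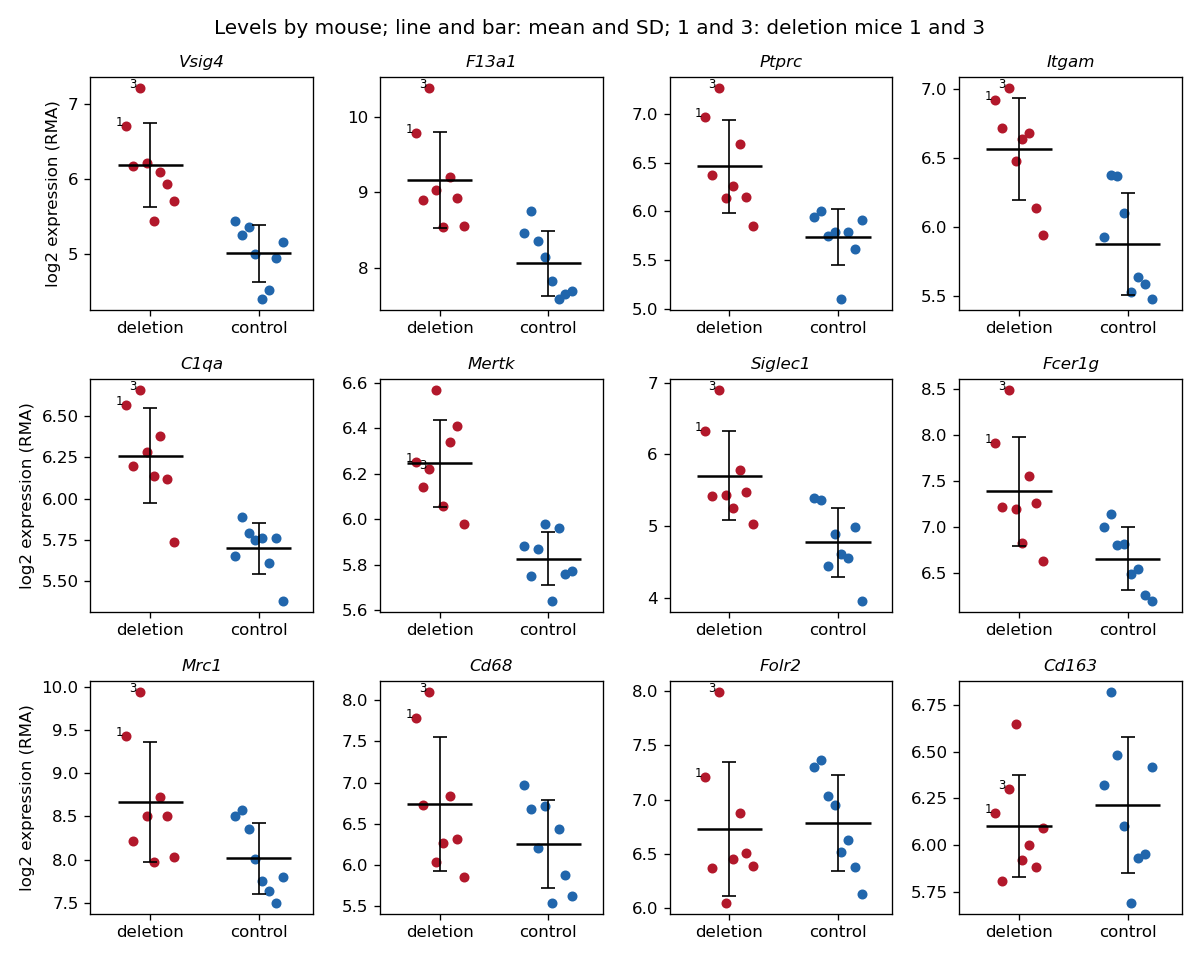
Log2 expression in each mouse for 12 members, the 6 called ones first, with deletion mice left (red) and controls right (blue); lines and bars are means and SDs over 8 mice. Deletion mice 1 and 3 are numbered and lie at or near the top of most panels, and Vsig4 alone has every deletion mouse above every control.

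Among the 15 pan-myeloid genes, 2 were called higher, 0 lower and 13 did not pass. The median difference was 0.48 log2 units. Ptprc encodes CD45, the phosphatase on the surface of all white blood cells, and is not specific to macrophages. It read 5.85, 6.31 and 7.27 log2 units in deletion mice, against 5.10, 5.79 and 6.00 in controls (lowest, median, highest). All but 1 of the deletion mice lay above every control. The difference was 0.73 (SE 0.17, 95% interval 0.36 to 1.09, limma adjusted p = 0.0397). That value is near the threshold, and the call was lost in 13 of 16 fits that each left out 1 mouse.

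Itgam encodes CD11b, which pairs with the chain made from Itgb2 to form complement receptor 3. In deletion mice it spanned 5.94, 6.66 and 7.01 log2 units, against 5.48, 5.79 and 6.38 in controls. Here 6 of 8 deletion mice exceeded every control. The difference of 0.69 (SE 0.17, 95% interval 0.34 to 1.04, limma adjusted p = 0.0395) lost its call in 11 of 16 fits without 1 mouse. Its partner Itgb2, the 1 gene called among 7 measured genes of the complement cascade outside the members, rose as well: 6.19, 6.84 and 7.32 log2 units in deletion mice, against 5.85, 6.10 and 6.43 in controls. The difference for Itgb2 was 0.61 (SE 0.13, limma adjusted p = 0.0253), and the call was lost in 6 of 16 such fits.

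The other pan-myeloid genes gave estimates that were mostly above 0 but did not pass. Fcer1g, the signalling gamma chain shared by several Fc receptors, came nearest: 6.63, 7.23 and 8.49 log2 units in deletion mice, against 6.19, 6.67 and 7.14 in controls, a difference of 0.73 (SE 0.21, limma adjusted p = 0.0897). Of the deletion mice, 6 were above every control. Csf1r, the receptor on which macrophages depend for survival, read 7.31, 7.55 and 8.76 in deletion mice and 6.64, 7.17 and 7.56 in controls, a difference of 0.63 (SE 0.20, adjusted p = 0.122). Tyrobp, the adaptor DAP12, differed by 0.55 (SE 0.23, adjusted p = 0.215), and Laptm5, a lysosomal membrane protein of blood cells, by 0.54 (SE 0.19, adjusted p = 0.147). All of these have intervals above 0 on their own and miss the threshold over 13601 genes.

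The classical macrophage identifiers were among those that did not pass. Adgre1 (EMR1), the usual surface marker of mouse macrophages, ran over 5.28, 5.82 and 7.03 log2 units in deletion mice and 4.90, 5.63 and 5.93 in controls, a difference of 0.43 (SE 0.21, limma adjusted p = 0.305). Cd68, a glycoprotein of lysosomes and endosomes, spanned 5.85, 6.53 and 8.10 in deletion mice and 5.54, 6.32 and 6.97 in controls, a difference of 0.49 (SE 0.30, adjusted p = 0.416). Both sets of values overlapped widely, and deletion mice 3 and 1 stood above the other 14 mice (8.10 and 7.78 for Cd68, 7.03 and 6.64 for Adgre1). Cd53, a tetraspanin of white blood cells, differed by 0.48 (SE 0.24, adjusted p = 0.316), Aif1 (IBA1) by 0.25 (SE 0.11, adjusted p = 0.253) and Cd52, a small surface glycoprotein, by 0.22 (SE 0.16, adjusted p = 0.503).

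Some pan-myeloid genes had nearly equal medians. Lyz2, the lysozyme gene used to drive Cre in myeloid cells, read 8.26, 8.79 and 10.51 log2 units in deletion mice, against 8.26, 8.82 and 9.55 in controls (difference 0.32, SE 0.27, limma adjusted p = 0.573). Ctss, the lysosomal protease cathepsin S, read 6.81, 7.81 and 9.15 in deletion mice, against 6.91, 7.78 and 8.43 in controls (difference 0.15, SE 0.28, adjusted p = 0.833). Cybb, the catalytic subunit of the phagocyte NADPH oxidase, read 6.04, 6.49 and 7.09 in deletion mice, against 6.11, 6.62 and 7.04 in controls (difference -0.07, SE 0.16, adjusted p = 0.865). Cd14, a co-receptor for bacterial lipopolysaccharide, differed by 0.08 (SE 0.18, adjusted p = 0.869). Without deletion mice 1 and 3 the estimates for Lyz2, Ctss and Cd14 were below 0, at -0.02, -0.18 and -0.12.

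**Figure D3:**
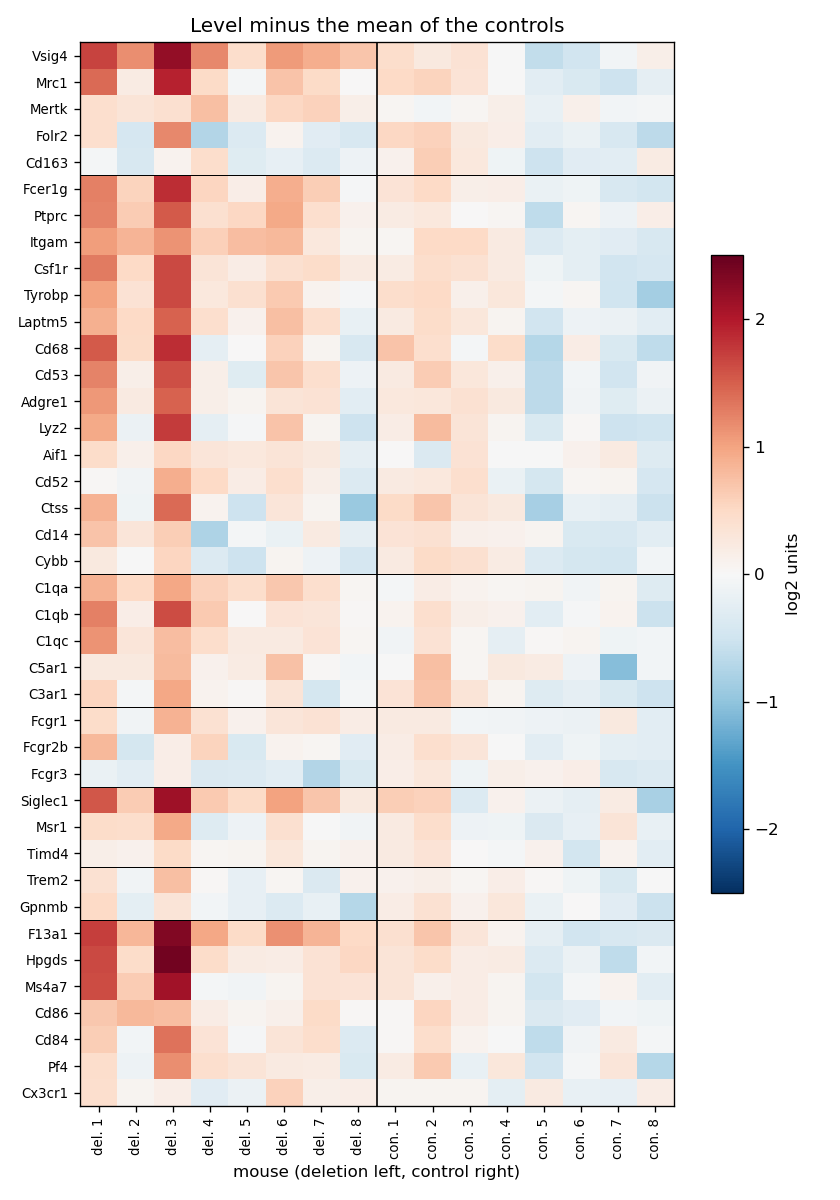
Level of each of the 40 members minus its mean over the controls (log2 units, colour), by mouse, deletion mice in the left 8 columns and controls in the right 8. Horizontal lines part the roles. Deletion mice 1 and 3 are red over most rows, and the Vsig4, F13a1 and Siglec1 rows are red in most deletion mice.

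Of 5 complement genes 1 was called higher, with a median difference of 0.43 log2 units. C1qa, C1qb and C1qc encode the 3 chains of C1q, which starts the classical complement pathway and is made mainly by macrophages, and they lie next to each other on chromosome 4. C1qa read 5.74, 6.24 and 6.66 log2 units in deletion mice, against 5.38, 5.76 and 5.89 in controls, and in 7 of 8 deletion mice it exceeded every control. The difference of 0.56 (SE 0.11, 95% interval 0.34 to 0.79) passed (limma adjusted p = 0.0140) and did so in all 16 fits that left out 1 mouse.

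The other chains had estimates of like size but did not pass. C1qb read 7.01, 7.32 and 8.63 log2 units in deletion mice and 6.45, 7.08 and 7.42 in controls, a difference of 0.55 (SE 0.21, limma adjusted p = 0.181). C1qc read 5.43, 5.70 and 6.50 in deletion mice and 5.15, 5.36 and 5.74 in controls, a difference of 0.43 (SE 0.13, adjusted p = 0.0932). Whether the 3 chains differ from each other in their change was not tested. The receptors of the complement fragments C3a and C5a, C3ar1 and C5ar1, differed by 0.18 (SE 0.19, adjusted p = 0.675) and 0.28 (SE 0.19, adjusted p = 0.454).

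None of the 3 Fc receptors for IgG passed, and their estimates ran in both directions. Fcgr1, the high-affinity receptor CD64, read 5.04, 5.46 and 5.98 log2 units in deletion mice, against 4.85, 5.04 and 5.36 in controls. The difference was 0.32 (SE 0.11, limma adjusted p = 0.152), with 5 deletion mice above every control. Fcgr3, a low-affinity activating receptor also found on natural killer cells and neutrophils, read 4.61, 5.04 and 5.51 in deletion mice, against 4.93, 5.47 and 5.62 in controls. It was the 1 member lower at an unadjusted p under 0.05, with a difference of -0.29 (SE 0.12, 95% interval -0.54 to -0.04, limma adjusted p = 0.211). Fcgr2b, the inhibitory receptor, differed by 0.07 (SE 0.17, adjusted p = 0.863), and its deletion mice spread widely, with 2 above and 3 below every control. Fcer1g, whose product carries signals for Fcgr1 and Fcgr3, is described above.

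Siglec1, sialoadhesin or CD169, binds sialic acids on other cells and is induced by interferon. It read 5.03, 5.45 and 6.90 log2 units in deletion mice, against 3.96, 4.76 and 5.39 in controls. Of the deletion mice, 6 lay above every control. The difference of 0.93 (SE 0.24, 95% interval 0.42 to 1.44) was exceeded among the members by those of Vsig4 and F13a1 alone, and missed the threshold (limma adjusted p = 0.0600). Msr1, scavenger receptor A, differed by 0.21 (SE 0.16, adjusted p = 0.523) and Timd4, a receptor for phosphatidylserine on dying cells, by 0.16 (SE 0.10, adjusted p = 0.402). The genes linked to lipid-laden macrophages did not pass either: Trem2, a lipid receptor, differed by 0.08 (SE 0.13, adjusted p = 0.803) and Gpnmb, a lysosomal glycoprotein, by -0.12 (SE 0.16, adjusted p = 0.748).

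F13a1, in the group of other macrophage genes, rose. Its product cross-links fibrin and is abundant in tissue macrophages, monocytes and platelets. Levels were 8.54, 8.98 and 10.38 log2 units in deletion mice, against 7.59, 7.98 and 8.75 in controls, with 6 of 8 deletion mice above every control. Its difference, 1.10 (SE 0.24, 95% interval 0.60 to 1.60), is a 2.15-fold higher level (limma adjusted p = 0.0239), and the call was lost in 5 of 16 fits without 1 mouse.

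The other 6 genes of that group had estimates above 0 that did not pass. Hpgds, which makes prostaglandin D2, read 5.07, 5.35 and 7.30 log2 units in deletion mice and 4.25, 4.95 and 5.35 in controls, a difference of 0.78 (SE 0.27, limma adjusted p = 0.155). Ms4a7, a membrane protein of macrophages, read 4.73, 5.17 and 6.91 in deletion mice and 4.35, 4.88 and 5.13 in controls, a difference of 0.63 (SE 0.26, adjusted p = 0.224). For both, deletion mice 3 and 1 stood above all other mice. Cd86, a costimulatory ligand for T cells, differed by 0.39 (SE 0.14, adjusted p = 0.165), Cd84, an adhesion receptor of blood cells, by 0.33 (SE 0.19, adjusted p = 0.385), Pf4 (CXCL4), also abundant in platelets, by 0.28 (SE 0.20, adjusted p = 0.489) and Cx3cr1, the fractalkine receptor, by 0.14 (SE 0.11, adjusted p = 0.538).

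Resident and pan-myeloid genes were then set against each other within each mouse. The mean of the 5 resident genes was 6.79 ± 0.39 log2 units in deletion mice and 6.37 ± 0.29 in controls (SD, n = 8 each), and that of the 15 pan-myeloid genes 6.59 ± 0.50 in deletion mice and 6.18 ± 0.32 in controls. The difference between the groups was 0.41 for each mean. The resident mean minus the pan-myeloid mean was therefore 0.19 ± 0.18 in deletion mice and 0.19 ± 0.12 in controls, with a lowest, median and highest value of 0.03, 0.11 and 0.48 in deletion mice and 0.05, 0.19 and 0.43 in controls. Averaged over each set, resident and pan-myeloid genes thus shifted by the same amount to 2 decimals. This match depended on which genes were in the sets. A filter at the 75th percentile removed Vsig4 and some pan-myeloid genes, and the difference between the groups in resident minus pan-myeloid mean was then -0.24. These are values without a test, since the genes were chosen with results known.

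The equal means covered resident genes that parted from each other. Vsig4 minus the mouse's pan-myeloid mean was -0.41 ± 0.22 log2 units in deletion mice and -1.16 ± 0.29 in controls, with 7 of 8 deletion mice above every control. For Mrc1 the value was 2.07 ± 0.25 in deletion mice and 1.84 ± 0.19 in controls, with 5 deletion mice above every control. Folr2 and Cd163 went the other way, with 6 of 8 deletion mice below every control in each: Folr2 was at 0.14 ± 0.25 in deletion mice and 0.61 ± 0.17 in controls, and Cd163 at -0.49 ± 0.51 in deletion mice and 0.04 ± 0.27 in controls. Mertk was at -0.35 ± 0.50 in deletion mice and -0.35 ± 0.29 in controls.

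A related question was asked in limma with the pan-myeloid mean as a covariate, which compares mice at an equal pan-myeloid level, with adjustment over the 13601 genes. Subtraction takes each gene to change 1 for 1 with the pan-myeloid mean, whereas the covariate fits a slope per gene, so the answers can differ. By subtraction the groups differed by 0.75 for Vsig4, 0.01 for Mertk, -0.47 for Folr2, 0.23 for Mrc1 and -0.53 for Cd163. In this fit 62 genes were called over the whole array, 41 higher and 21 lower. The pan-myeloid mean itself differed between the groups by 0.41. Deletion mice 1, 3 and 6, at 7.10, 7.51 and 6.69, lay above the highest control at 6.60, so no control shared their level. The genes in the covariate and those tested were chosen with results known, which limits the p-values that follow. At an equal pan-myeloid level Vsig4 was higher by 0.77 in deletion mice (SE 0.14, limma adjusted p = 0.0187) and Folr2 was lower, by -0.55 (SE 0.11, adjusted p = 0.0349). Mertk (0.38, SE 0.09, adjusted p = 0.0779), Mrc1 (0.11, SE 0.11, adjusted p = 0.710) and Cd163 (-0.25, SE 0.16, adjusted p = 0.544) did not pass. With each mouse left out in turn, Vsig4 passed in 15 of 16 such fits (0.0716 without control mouse 2) and Folr2 in 6 of 16, with an adjusted p of up to 0.100. Without the 6 mice with high Alb neither passed (Vsig4 0.76, adjusted p = 0.355, and Folr2 -0.38, adjusted p = 0.503), and without deletion mice 1 and 3 Folr2 was at -0.54 (adjusted p = 0.0505).

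**Figure D4:**
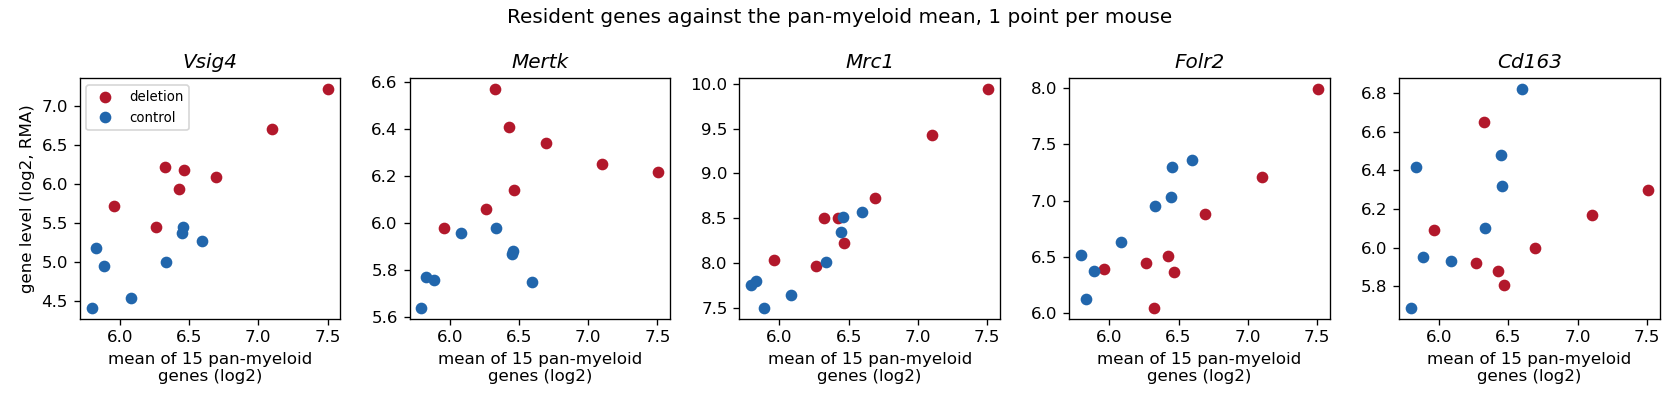
Level of each resident gene (log2, y axis) against the mean of 15 pan-myeloid genes (log2, x axis), 1 point per mouse, deletion in red and control in blue. Where the groups share a pan-myeloid level, deletion mice lie above controls for Vsig4 and below most of them for Folr2. Deletion mice 1, 3 and 6 lie beyond the highest control on the x axis, mouse 6 by the least.

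Other macrophage genes, not among the 41, were counted by list. Of 6 measured genes of Lyve1-type tissue macrophages, which line vessels, 2 were called higher and 0 lower, with a median difference of 0.58 log2 units. Lyve1, a hyaluronan receptor also made by lymphatic endothelium, read 8.12, 8.38 and 8.67 log2 units in deletion mice, against 7.25, 7.71 and 7.94 in controls. No control reached the lowest deletion mouse, and the difference was 0.72 (SE 0.11, limma adjusted p = 0.00298). Fcna, the lectin ficolin A, read 5.48, 5.66 and 6.02 in deletion mice, against 4.79, 5.17 and 5.49 in controls, a difference of 0.55 (SE 0.11, adjusted p = 0.0144). Both calls held in all 16 fits without 1 mouse.

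Of 5 measured activation genes 2 were called higher and 0 lower. The other 6 of the 11 listed, Arg1, Chil3, Il1b, Il6, Il10 and Ptgs2, were under the filter. Retnla, whose product RELM-alpha marks alternatively activated macrophages and is also made in fat tissue, read 7.95, 8.52 and 9.20 log2 units in deletion mice, against 7.06, 7.88 and 8.35 in controls. The difference was 0.84 (SE 0.18, limma adjusted p = 0.0237). Tgfb1, a cytokine made by many cell types that damps immune responses and promotes matrix, read 6.33, 6.89 and 7.14 in deletion mice, against 6.03, 6.28 and 6.73 in controls, a difference of 0.53 (SE 0.12, adjusted p = 0.0287). Leaving out 1 mouse ended the call for Retnla in 1 of 16 fits and for Tgfb1 in 10.

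The factors that feed or attract macrophages did not pass. None of 12 measured growth factor and transcription factor genes was called. Csf1, the ligand of Csf1r, differed by 0.29 (SE 0.09, limma adjusted p = 0.0981), with 7 of 8 deletion mice above every control. Csf3, the growth factor of neutrophils, differed by 0.22 (SE 0.09, adjusted p = 0.214) and Spi1 (PU.1) by 0.35 (SE 0.15, adjusted p = 0.233). Csf3 was above the array median in 7 deletion mice and 2 controls. It thus met the filter through the deletion group, which limits what its value can show. None of 9 chemokines was called, with a median difference of 0.09, 7 estimates above 0 and 2 below. Ccl24, which had the smallest p among them, was lower, by -0.31 (SE 0.12, limma adjusted p = 0.192). The ligands of Mertk did not pass either: Pros1 differed by 0.36 (SE 0.12, adjusted p = 0.144) and Gas6 by 0.29 (SE 0.12, adjusted p = 0.215), and none of 5 measured genes of this family of receptors and ligands outside the members was called. None of 13 lysosomal genes was called; Lipa, the acid lipase, differed by 0.51 (SE 0.16, adjusted p = 0.113) and Grn, progranulin, by 0.56 (SE 0.20, adjusted p = 0.161).

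Markers of other cells moved beside the members in some lists and not in others. Of 5 measured neutrophil markers 1 was called higher, S100a8 (1.28, SE 0.27, limma adjusted p = 0.0227), a calcium-binding protein that monocytes also make. S100a8 was above the array median in 8 deletion mice and 2 controls. It thus met the filter through the deletion group, where it is high, which limits what its call and the list's mean can show. The list's mean ran from 4.63 to 5.79 log2 units in deletion mice and from 4.52 to 4.79 in controls, while S100a9, Ly6g, Retnlg, Mmp8, Camp and Ltf were under the filter. Of 5 mast cell markers 1 was called higher, Tpsb2, a tryptase (0.48, SE 0.10, adjusted p = 0.0239), with list means from 5.70 to 6.33 in deletion mice and from 5.06 to 6.33 in controls. None of 4 monocyte markers was called, with means from 6.67 to 7.28 in deletion mice and from 6.52 to 7.18 in controls, and Ccr2 and Plac8 were under the filter. None of 3 lymphocyte markers and none of 3 dendritic cell markers was called. The 1 measured red cell marker, Slc4a1, the anion exchanger band 3, read 5.62, 7.44 and 10.18 in deletion mice, against 5.42, 6.17 and 7.11 in controls. Its difference of 1.55 (SE 0.49, adjusted p = 0.113) did not pass, with 5 of 8 deletion mice above every control and the highest level in deletion mouse 4. The part of neutrophils, mast cells and blood content in the members' levels was not tested.

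Of 8 endothelial markers 6 were called higher, and their mean ran from 7.81 to 8.30 log2 units in deletion mice and from 7.54 to 7.90 in controls. With this mean as a covariate 0 of 40 members passed in limma, 15 were higher at an unadjusted p under 0.05, and 3 genes passed over the whole array. In this fit the members' median was 0.54, against 0.36 without the covariate. The estimate for Vsig4 was 1.55 (limma adjusted p = 0.328) and that for F13a1 1.53 (adjusted p = 0.474). The endothelial mean itself differed between the groups, with 6 of 8 deletion mice above every control, which leaves each estimate less precise. Group and endothelial level are thus hard to separate in this fit, and the part of endothelial cells in the members' levels was not tested. Hepatocyte markers differed less between groups than within them, with means from 4.83 to 8.16 in deletion mice and from 4.71 to 7.87 in controls and 0 of 5 called. With their mean as a covariate 4 members passed (Vsig4, Mertk, C1qa and F13a1). Vsig4 and Timd4 are also made by Kupffer cells, the macrophages of liver. None of 3 measured Kupffer cell markers was called. Clec4f, which defines these cells, was at 4.40, 4.56 and 4.75 log2 units in deletion mice and 4.30, 4.59 and 4.68 in controls, close to the array median in both, a difference of 0.02 (SE 0.07, limma adjusted p = 0.895), and Cd5l and Clec1b were under the filter. Marco, a scavenger receptor also made by other macrophages, read 4.97, 5.37 and 7.09 in deletion mice and 4.95, 5.17 and 5.34 in controls, a difference of 0.40 (SE 0.21, adjusted p = 0.343). For Marco 4 of 8 deletion mice lay above every control and deletion mouse 3 was far above the rest. Cd207, langerin, differed by -0.14 (SE 0.14, adjusted p = 0.652).

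**Figure D5:**
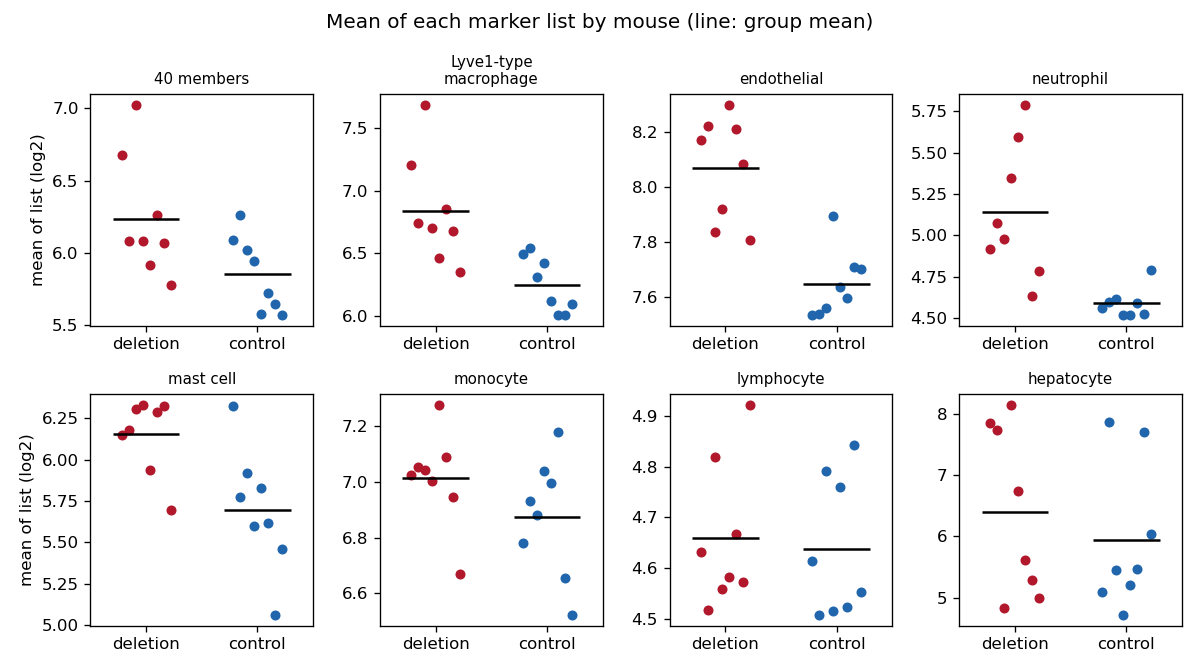
Mean log2 level per mouse of the 40 members and of 7 marker lists, deletion left (red) and control right (blue), with the group mean as a line. Endothelial, neutrophil and Lyve1-type macrophage means each have 6 of 8 deletion mice above every control, the 40 members have 2, and monocyte, lymphocyte and hepatocyte means overlap. The neutrophil list includes S100a8, which met the filter through the deletion mice.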

How the data were processed

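One array per mouse measured RNA of gastrocnemius muscle. Per the labels, 250 ng of total RNA was turned into biotin-labelled cRNA by the Affymetrix procedure. The submitters' processing notes name RMA and oligo, without versions, so the deposited values are taken as RMA expression per probe set on the log2 scale. RMA sets arrays to a common distribution and compresses the fold changes of dim probe sets. Neither the array's build nor scan times are given in the sources used here, and no scan batch was examined. All 16 columns were matched to a mouse by label. Precision is limited by there being 8 mice per group.

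Of 41345 probe sets, 23521 had 1 gene symbol, 1814 several and 16010 none. Only those with 1 symbol were used, if brighter than the array median in 8 or more of 16 arrays, and the brightest on average per gene, which left 13601 genes. limma 3.58.1 (lmFit and eBayes, R 4.3.3) was used to compare the groups, two-sided, with group as the only term and Benjamini-Hochberg adjustment over those genes. The 41 members, the other lists and the tests were chosen with earlier results of these data known. The labels call the mice biological replicates. Every member above the filter could be named, the FoxO genes and Alb, and of each other list the called genes or up to 2 with the smallest p in each direction. Spi1, Clec4f and the genes under the filter were named after their values were seen. The procedure was tested on simulated data. Promoter windows come from RefSeq's GRCm38.p6 tables. The alternatives tried were other filters, centring, quantile normalization, averaged probe sets, other variance settings, array weights, marker means as covariates, the replicate number as a block and leaving out mice. Of 8 deletion mice, 1 correlated best with the control of its own number, so the numbers were not taken as pairs. Figures were drawn with matplotlib 3.10.9 in Python 3.11.15.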

Additional observations from a re-analysis of the deposited data

Results flagged for a closer look

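In 106 groups of 8 values (the members, the targeted genes, Alb and the list means in each group of mice), 3 had a mouse whose gap to the nearest of the others was above the 95% critical value of 0.526 of the group's range; chance flags about 1 in 20 groups. Ptprc was at 5.10 log2 units in control mouse 5, the lowest control, against 5.61 in the next (gap over range 0.567). Without that mouse Ptprc did not pass the threshold, but its call was lost in 13 of the 16 fits that each left out 1 mouse. The neutrophil marker mean was 4.788 in control mouse 8, the highest control, against 4.614 in the next (0.644). Foxo1 was at 8.23 in deletion mouse 4, the highest deletion mouse, against 7.41 in the next (0.695).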

How the results depend on the processing

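The count of members called lower was 0 under every alternative. The count called higher, 6 as reported, was between 4 and 6 with no filter, a filter at the 75th percentile, centring, quantile normalization, the mean of probe sets, a trended and robust variance, array weights and the hepatocyte mean as a covariate. Over the fits without 1 mouse it ran from 3 (without control mice 5, 6 or 7, or deletion mice 1 or 6) to 10 (without deletion mouse 8), and over all genes the number called higher ran from 90 to 538, against 208. Vsig4, Mertk and C1qa kept their call in all 16 of those fits. At the 75th percentile Vsig4 and C1qa were not tested. With the replicate number as a block, 11 members were higher (Csf1r, Fcer1g, Laptm5, Siglec1 and Cd86 in addition). By correlation, 1 of 8 deletion mice matched best with its own number, so this block was not taken as evidence of pairing. The members' mean did vary with mouse number. It was 5.94 to 6.26 log2 units in control mice 1 to 4, against 5.57 to 5.72 in control mice 5 to 8. In deletion mice it was 6.08 to 7.03 in mice 1 to 4 and 5.78 to 6.26 in mice 5 to 8, which overlap. The cause of this was not tested. With the endothelial mean as a covariate, and without the 6 mice with high Alb (chosen after seeing the data), 0 members were higher. Without deletion mice 1 and 3, also chosen after seeing the data, 4 were. The resident minus pan-myeloid difference was -0.001 log2 units, and from -0.04 to 0.03 without 1 mouse. It was -0.24 at the 75th percentile, where Vsig4 and some pan-myeloid genes were no longer in the sets.

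No called member changed sign. Uncalled estimates that did were, with the endothelial covariate, Folr2 (0.30), Cd163 (0.29) and Cybb (0.067); without the high-Alb mice, Folr2 (0.18) and Cybb (0.018); and without deletion mice 1 and 3, Lyz2 (-0.019), Cd14 (-0.12), Ctss (-0.18), C3ar1 (-0.016), Fcgr2b (-0.066) and Trem2 (-0.084). Over the fits without 1 mouse Folr2 ran from -0.24 to 0.040, Cd14 from -0.013 to 0.20, Ctss from -0.033 to 0.30, Fcgr2b from -0.032 to 0.15 and Trem2 from -0.019 to 0.14. The cause of these changes was not tested.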
